A study of Mus musculus with 27 samples.

Results

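The 33 genes described here mark lymphocytes, among 54532 genes in the deposited count matrix. They were taken by name, as 22 genes of T cells and natural killer (NK) cells and 11 genes of B cells and plasma cells, and all 33 were found. The study counted RNA 3′ ends in laser-microdissected mouse thyroid in 27 libraries. Normal control tissue (NCT, 9 libraries) came from mice without radiation exposure. Normal tissue (NT, 9 libraries) came from exposed mice, at places without lesions. Proliferative lesions (PL, 9 libraries) came from the same 9 mice as NT, and replicates of NT and PL with the same number are from 1 mouse, called mouse 1 to 9. Each group held 6 females and 3 males. The labels used here name neither strain, age nor radiation dose, and no transgene or deletion.

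T cells recognise antigen through a receptor made of variable chains and the CD3 subunits, and signal through the kinases Lck and Zap70. B cells carry a membrane antibody coupled to CD79, and plasma cells secrete antibody assembled from heavy and light chains in an enlarged endoplasmic reticulum. The thyroid is a gland of epithelial follicles that normally holds few lymphocytes, and lymphocytes gather in it in autoimmune thyroiditis.

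The Cd3g, Cd3d and Cd3e genes lie side by side on chromosome 9, over 40056 bases in the GENCODE M21 annotation of GRCm38 (Cd3g at chr9:44969572-44980431 on the minus strand, Cd3d at chr9:44981786-44987339 on the plus strand, Cd3e at chr9:44998740-45009627 on the minus strand). Cd3g and Cd3d run away from each other and lie 1355 bases apart. Their promoters and that of Cd79a, which encodes the signalling partner of the B cell receptor (chr7:24897381-24902197, plus strand), are shown because these are the genes by which T cells and B cells are most often recognised. The windows run from 250 bases before to 50 bases after the RefSeq start (GRCm38.p6), at chr9:45009562-45009861 minus for Cd3e, chr9:44981536-44981835 plus for Cd3d, chr9:44980382-44980681 minus for Cd3g and chr7:24897247-24897546 plus for Cd79a. Capitals mark matches to AGGAAGT (an ETS-type motif) or to CAGGTG (an E-box) on either strand.
Cd3e: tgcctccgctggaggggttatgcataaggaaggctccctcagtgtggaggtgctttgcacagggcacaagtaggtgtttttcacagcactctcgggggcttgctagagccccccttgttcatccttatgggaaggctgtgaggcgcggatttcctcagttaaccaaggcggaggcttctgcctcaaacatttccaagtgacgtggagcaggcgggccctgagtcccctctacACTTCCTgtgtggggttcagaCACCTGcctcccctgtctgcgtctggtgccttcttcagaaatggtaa
Cd3d: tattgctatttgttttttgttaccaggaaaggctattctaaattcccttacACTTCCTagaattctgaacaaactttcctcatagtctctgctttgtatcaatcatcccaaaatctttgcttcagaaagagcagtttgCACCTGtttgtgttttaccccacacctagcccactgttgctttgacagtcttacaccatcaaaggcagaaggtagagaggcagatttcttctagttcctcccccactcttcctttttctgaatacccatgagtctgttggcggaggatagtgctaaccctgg
Cd3g: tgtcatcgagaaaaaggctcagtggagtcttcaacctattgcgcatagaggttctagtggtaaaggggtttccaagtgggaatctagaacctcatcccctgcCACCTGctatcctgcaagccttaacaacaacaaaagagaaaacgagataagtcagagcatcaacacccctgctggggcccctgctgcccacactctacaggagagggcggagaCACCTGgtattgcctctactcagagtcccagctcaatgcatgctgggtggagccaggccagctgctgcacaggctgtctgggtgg
Cd79a: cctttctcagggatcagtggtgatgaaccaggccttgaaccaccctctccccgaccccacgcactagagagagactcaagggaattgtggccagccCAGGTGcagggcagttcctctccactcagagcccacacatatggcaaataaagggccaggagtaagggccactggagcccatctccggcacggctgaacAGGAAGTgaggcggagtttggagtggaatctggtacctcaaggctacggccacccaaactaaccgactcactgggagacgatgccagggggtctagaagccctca
The windows of Cd3e, Cd3d and Cd79a held 1 match to each motif, and that of Cd3g held 2 E-boxes and no AGGAAGT. Of the 33 genes, 18 had an entry in the RefSeq promoter table, with 21 windows. Those without one were Blk, Ccl5, Cd2, Cd28, Cd4, Cd6, Cd79b, Ighm, Igkc, Il2rb, Klrd1, Ms4a1, Mzb1, Trac and Trbc2. AGGAAGT stood in 8 of the 21 windows, of 7 genes (6 of them T and NK genes), and in 9.35% of all 32851 promoter windows in the table. CAGGTG stood in 14 of the 21 windows, of 12 genes, against 20.2% of all windows. TGTGGT, a RUNX-type motif, stood in 6 of the 21 windows, of 6 genes, all T and NK genes, against 16.8% of all windows. The octamer ATGCAAAT stood in none of them and in 1.74% of all windows. Both strands were searched for each motif, the motifs do not overlap in the 4 windows printed, and a match of letters is not a bound site.

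Lymphocyte transcripts were a small and uneven part of the libraries. The libraries held 2923851 to 14148601 counts, and the 33 genes together took from 0.00701% of them (PL replicate 3) to 0.767% (NT replicate 6). Between 0 and 13 of the 33 genes had no count in a library, and a count of 0 allows a level of up to 0.2016 to 1.33 CPM (counts scaled to a common library size), depending on the library. All levels are CPM after trimmed-mean scaling (TMM). In bulk tissue, fewer cells of a type and less RNA per cell cannot be told apart. The labelled tissue was present in every library: the summed level of 10 thyrocyte markers lay between 12555.6 and 63042.2 CPM. Parathyroid, C cell, airway, fat and blood markers varied widely between libraries, and Pth, the parathyroid hormone gene, or Lipf, a lipase of tongue and stomach, exceeded 2000 CPM in NCT replicates 5, 8 and 9, NT replicates 7 and 9 and PL replicate 2.

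**Figure D1:**
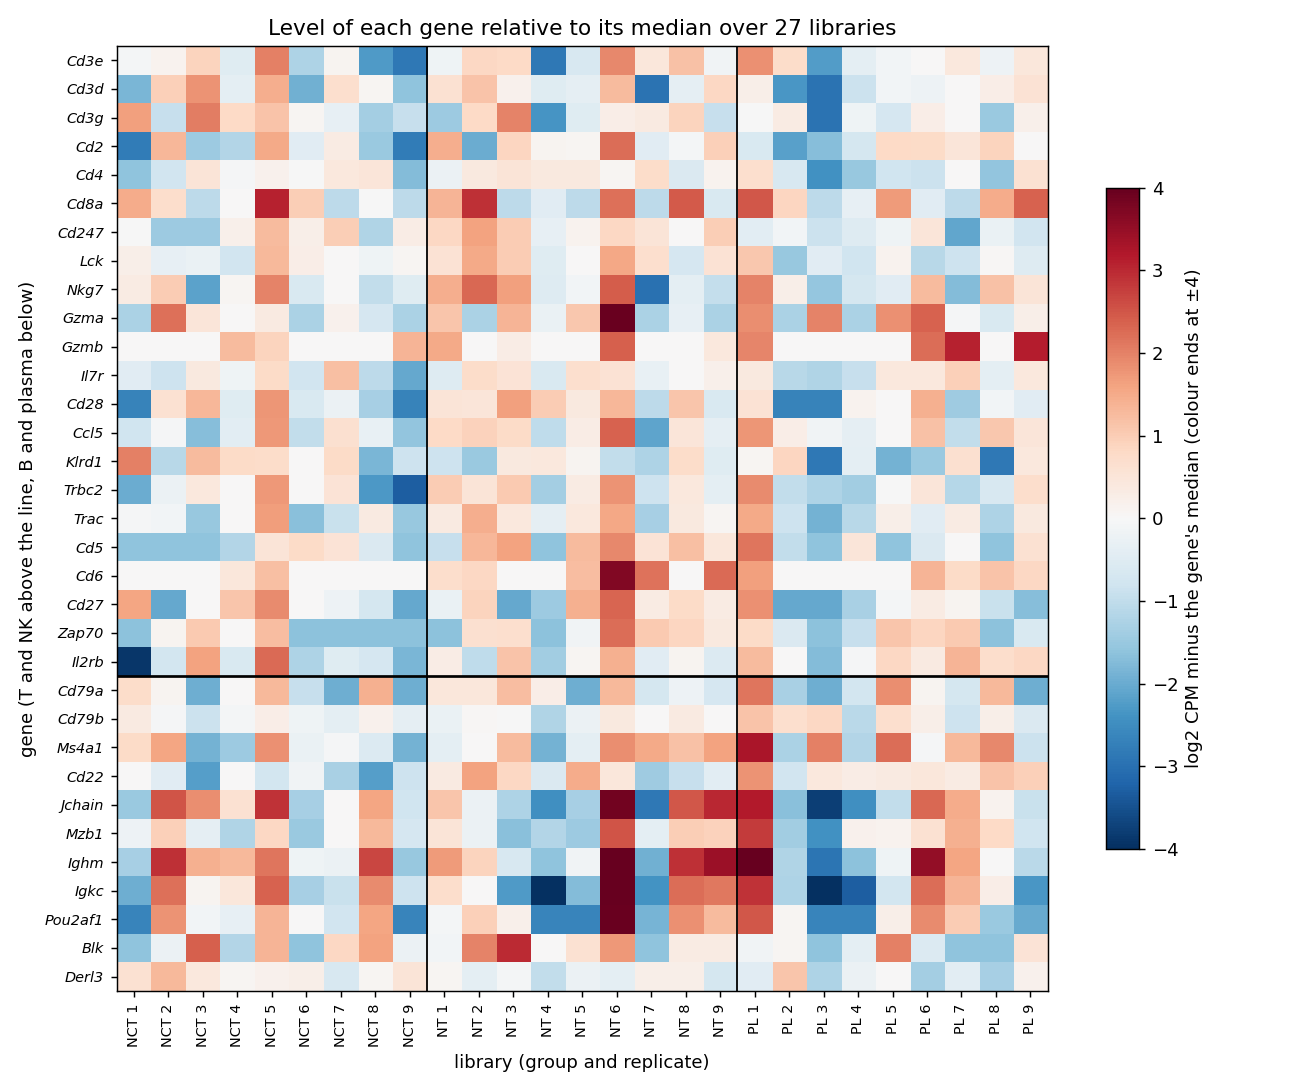
Level of each of the 33 genes (vertical axis) in each of the 27 libraries (horizontal axis, by group and replicate), as log2 CPM minus the gene's median over all libraries. NT replicate 6 and PL replicate 1 are red in most genes, with Ighm among the darkest, and PL replicate 3 is blue in most genes.

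Of the 33 genes, none passed the test in any of the 3 comparisons by edgeR's quasi-likelihood test (adjusted p under 0.05 over all genes tested). Over all genes, 3.08% were called between PL and NT (445 of 14461), 0.0277% between NT and NCT (4 of 14447) and 10.1% between PL and NCT (1433 of 14234). Low counts kept part of the genes out of each test: 23 of the 33 were tested between PL and NT, 21 between NT and NCT and 18 between PL and NCT. Among the tested T and NK genes, unadjusted edgeR p was under 0.05 for 2 of 14, 0 of 15 and 0 of 12 in the 3 comparisons. Among B and plasma genes it was so for 0 of 9, 1 of 6 and 0 of 6. Over all genes tested, it was so for 2552 of 14461, 1673 of 14447 and 3353 of 14234. DESeq2's Wald test called 1 T or NK gene between PL and NT (Cd247) and none of the 33 in the other comparisons, and limma-voom called none of the 33 in any. Over all genes tested, DESeq2 called 8.89% in PL vs NT, 0.928% in NT vs NCT and 13.1% in PL vs NCT. The shares by limma-voom were 3.67%, 0% and 10.1%.

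The T cell receptor genes come first. Trbc2, a constant segment of the receptor β chain (chr6:41546730-41548352), ranged from 0.4435 CPM to 23.51 in NCT (median 6.803), from 2.46 to 24.35 in NT (median 9.143) and from 2.433 to 26.34 in PL (median 4.285). The groups overlapped throughout, and the high libraries were NCT replicate 5, NT replicate 6 and PL replicate 1. Trbc2 differed by -0.55 on the log2 scale between PL and NT (95% interval -1.29 to 0.19, edgeR adjusted p = 0.449) and was lower in PL in 7 of 9 mice. Trac, the α chain constant segment, had medians of 4.03, 5.83 and 3.143 CPM in NCT, NT and PL and was led by the same NCT, NT and PL libraries. Its PL minus NT difference was -0.71 (interval -1.73 to 0.31, edgeR adjusted p = 0.481).

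Of the CD3 subunits, Cd3e, a signalling chain of the receptor complex, ranged from 0 to 8.041 CPM in NCT (median 1.693), 0 to 7.665 in NT (median 2.565) and 0.1625 to 7.193 in PL (median 1.796). NCT replicate 9 and NT replicate 4 had no Cd3e count, and the ranges of the groups nearly coincided. Between PL and NT, Cd3e differed by -0.09 on the log2 scale (interval -1.56 to 1.38, edgeR adjusted p = 0.964). For Cd3d and Cd3g it was -0.66 and -0.24, with intervals that also crossed 0. NCT replicate 3 had the highest level of both, 7.4 CPM of Cd3d and 8.97 CPM of Cd3g, while its Cd3e level was 3.588 CPM.

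Cd247, the CD3 zeta chain (chr1:165788681-165877277, plus strand), had the smallest p of the 33 genes between PL and NT. It ranged from 0.4478 to 4.508 CPM in NCT (median 2.031), from 1.302 to 5.89 in NT (median 3.306) and from 0.194 to 2.545 in PL (median 1.216). The PL level was below the NT level in all 9 mice and below the NT median in every PL library, although the ranges overlapped. The difference was -1.29 on the log2 scale (SE 0.44, interval -2.24 to -0.35, edgeR adjusted p = 0.129). By DESeq2 it was -1.31 with an adjusted p of 0.0311. Without the 3 mice in which Pth or Lipf was above 2000 CPM, the edgeR difference was -0.82 (adjusted p = 0.576). Between NT and NCT, Cd247 differed by 0.62 (SE 0.45, edgeR adjusted p = 0.615).

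Lck, the kinase that starts receptor signalling (chr4:129548344-129573641, minus strand), ranged from 3.046 to 13.89 CPM in NCT (median 5.44), 3.313 to 16.68 in NT (median 8.363) and 1.727 to 11.95 in PL (median 3.737). NT replicates 6 and 2 were highest, with 16.68 and 16.22 CPM, and 1 PL library exceeded the NT median. Between PL and NT, Lck differed by -0.98 (SE 0.42, interval -1.88 to -0.09, edgeR adjusted p = 0.23), with a lower level in PL in 6 of 9 mice. Without the 3 mice with high Pth or Lipf it was -0.49 (edgeR adjusted p = 0.72). Between NT and NCT Lck differed by 0.57 (interval -0.10 to 1.24, edgeR adjusted p = 0.508). Zap70, the kinase that acts after Lck, had 163 counts in all 27 libraries together and was not tested.

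Cd4, the co-receptor of helper T cells (chr6:124864692-124888221, minus strand), ranged from 0.4435 to 3.14 CPM in NCT (median 2.075), 1.325 to 3.749 in NT (median 2.86) and 0.1625 to 3.546 in PL (median 1.101). PL replicates 1, 9 and 7 had levels of 3.546, 3.364 and 2.134 CPM inside the NT range, and the other PL libraries had 0.1625 to 1.256 CPM. From NT to PL the difference was -1.03 (SE 0.51, interval -2.11 to 0.05, edgeR adjusted p = 0.307). Cd8a, the co-receptor of cytotoxic T cells, had no count in 8 of the 27 libraries and a maximum of 4.752 CPM in NCT replicate 5, 4.223 CPM in NT replicate 2 and 3.039 CPM in PL replicate 1. It was too low to be tested in any comparison. Cd28, the co-stimulatory receptor, had a PL minus NT value of -1.11 (interval -2.51 to 0.29), and the adhesion receptor Cd2 had a fitted value of -0.72. Cd5, Cd6 and Cd27, further T cell surface receptors, had 193, 64 and 260 counts over all libraries and were not tested. Cd5 and Cd6 neighbour each other on chromosome 19, and the highest Cd6 level was 3.457 CPM in NT replicate 6.

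Il7r, the receptor for the survival factor interleukin-7 (chr15:9505788-9530176, minus strand), had counts in every library. It ranged from 3.104 to 31.65 CPM in NCT (median 9.988), 8.97 to 23.11 in NT (median 15.7) and 5.85 to 26.58 in PL (median 18.13). Il7r differed by -0.24 between PL and NT (interval -0.88 to 0.40) and by 0.24 between NT and NCT (interval -0.43 to 0.91). Il2rb, a receptor subunit for interleukin-2 and interleukin-15, was higher in PL than in NT in 7 of 9 mice, with a difference of 0.57 (interval -0.40 to 1.55, edgeR adjusted p = 0.566).

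Among the cytotoxic and NK genes, Ccl5, a chemokine released by activated T and NK cells (chr11:83525778-83530518, minus strand), ranged from 4.037 to 46.54 CPM in NCT (median 10.26), 2.959 to 71.84 in NT (median 19.48) and 6.789 to 48.02 in PL (median 16.64). NCT replicate 5, NT replicate 6 and PL replicate 1 led their groups here too. Ccl5 differed by 0.11 between PL and NT (interval -0.44 to 0.66), and its NT minus NCT difference of 0.65 became 0.18 without NT replicate 6. Nkg7, a granule membrane protein, ranged from 0.2243 to 8.651 CPM in NCT (median 1.978), 0 to 11.87 in NT (median 1.82) and 0.388 to 8.713 in PL (median 2.355), with a PL minus NT difference of -0.27 (interval -1.55 to 1.01). Granzyme A (Gzma) reached 10.37 CPM in NT replicate 6 and 0 to 3.293 CPM in all 26 other libraries, and was not tested. Granzyme B (Gzmb) had no count in 16 of 27 libraries. Klrd1 (CD94), a receptor subunit of NK cells, ranged from 0.2912 to 8.126 CPM in NCT (median 3.168), 0.4445 to 3.18 in NT (median 1.193) and 0 to 3.454 in PL (median 1.31). It was the T or NK gene with the smallest p between NT and NCT, at -0.92 (SE 0.52, interval -2.0 to 0.15, edgeR adjusted p = 0.506), and 1 NT library was above the NCT median.

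Taking the tested T and NK genes as a list, 12 of 14 had a lower fitted level in PL than in NT and 2 a higher one, with a median difference of -0.61 on the log2 scale against 0.00 over all genes tested. Over all 22, fitted without a filter on low counts, 17 were lower and 5 higher, with the same median of -0.61 against -0.01 over 30467 genes. Between NT and NCT, 11 of 15 tested T and NK genes were higher in NT, with a median of 0.45 against 0.01 over all genes, and without NT replicate 6 that median was 0.19. Between PL and NCT, 6 of 12 were higher and 6 lower, with a median of 0.03. These comparisons share libraries, and genes of one cell type vary together between libraries, so the counts of directions are not separate observations. Pan-leukocyte genes had a median of -0.26 between PL and NT and 0.48 between NT and NCT (15 of 15 tested, 0 called in either), and markers of macrophages and dendritic cells had -0.32 and 0.42 (16 of 16 tested, of which Cd163 fell in PL). Most markers of C cells and of airway and squamous epithelium were lower in PL than in NT. The summed level of 6 C cell genes was 351.9 to 5751.1 CPM in NT and 59.15 to 371.7 in PL. Of these genes 4 were called lower, and Calcb (1.95) and Ret (-0.05) were not called. That of 8 airway and squamous genes was 122.1 to 6216.6 CPM in NT and 37.37 to 455.3 in PL (4 called lower, with Trp63 at -0.31 among those not called). Over all genes tested, 190 of 14461 were called lower. The part of any of these in the T and NK values was not tested.

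**Figure D2:**
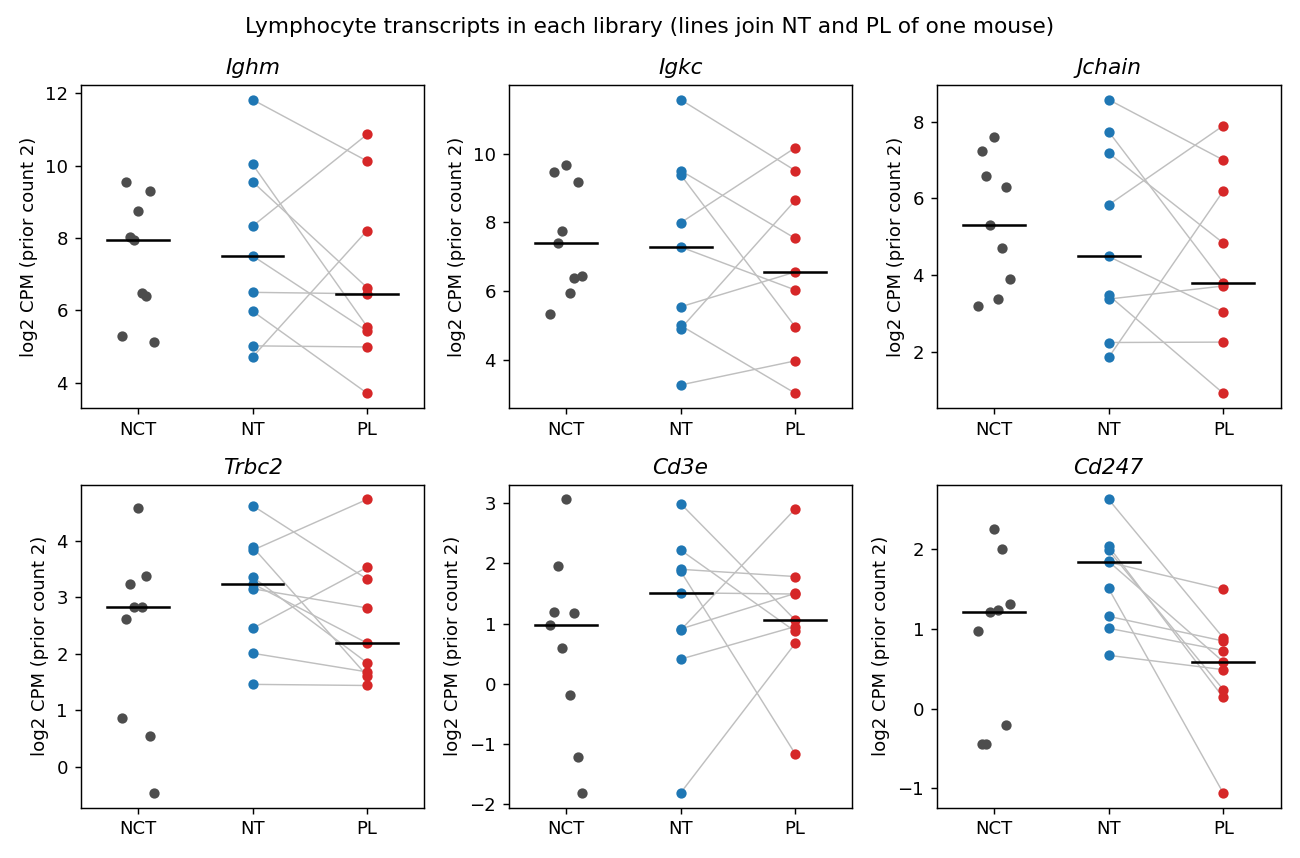
Level (vertical axis, log2 CPM with a prior count of 2) of 3 antibody genes and 3 T cell genes in each library of the 3 groups, with a bar at each group's median and lines joining NT and PL of the same mouse. Lines run in both directions for the antibody genes, and all 9 lines fall from NT to PL for Cd247.

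B cell surface genes were low in every group. Ms4a1 (CD20) ranged from 0 to 3.533 CPM in NCT (median 0.5928), 0 to 3.607 in NT (median 2.12) and 0.157 to 9.827 in PL (median 2.328). The groups overlapped, and PL replicate 1 held the highest level. Between PL and NT, Ms4a1 differed by 0.30 (interval -1.42 to 2.02, edgeR adjusted p = 0.893). Cd79a was at 0 in 6 of 27 libraries and reached 4.559 CPM in PL replicate 1, and was not tested. Cd79b, its partner (chr11:106311341-106314762, minus strand), had a count in every library and varied least of the B and plasma genes, from 2.467 to 6.095 CPM in NCT (median 4.366), 1.881 to 6.162 in NT (median 4.672) and 2.059 to 10.64 in PL (median 5.538). Its PL minus NT difference was 0.27 (interval -0.38 to 0.93, edgeR adjusted p = 0.702). Cd22, an inhibitory receptor of B cells, ranged from 0 to 1.016 CPM in NCT (median 0.4874), 0.1973 to 3.667 in NT (median 1.394) and 0.471 to 4.255 in PL (median 1.462), with a PL minus NT difference of 0.51 (interval -0.79 to 1.80). It was too low to be tested against NCT, where the ranges overlapped. Blk, a B cell kinase, was at 0 in 6 libraries and reached 6.586 CPM in NT replicate 3.

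The antibody genes differed more between libraries of 1 group than between groups. Ighm, the heavy chain of IgM (chr12:113418558-113422730, minus strand), ranged from 34.59 to 751.8 CPM in NCT (median 245.1), 25.85 to 3639.8 in NT (median 182.5) and 12.84 to 1877.3 in PL (median 87.94). The highest library, NT replicate 6, had 283.5 times the level of the lowest, PL replicate 3. Between PL and NT, Ighm differed by -1.0 (SE 0.94, interval -3.14 to 1.15, edgeR adjusted p = 0.65), and the NT minus NCT difference was 1.25 (SE 0.94, interval -0.75 to 3.24, edgeR adjusted p = 0.642). Without NT replicate 6 the latter was 0.12 (edgeR adjusted p = 0.98). Both intervals were several log2 units wide, so the lack of a call does not show an equal Ighm level in the groups. They included a several-fold lower level in PL than in NT and a several-fold higher level in NT than in NCT.

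Igkc, the kappa light chain (chr6:70726435-70726966, plus strand), ranged from 40.29 to 807.1 CPM in NCT (median 169.1), 9.405 to 3049.1 in NT (median 156.5) and 7.962 to 1155.1 in PL (median 94.27). Jchain, which joins IgM and IgA into polymers (chr5:88519809-88527891, minus strand), ranged from 8.973 to 192.4 CPM in NCT (median 39.4), 3.354 to 378.7 in NT (median 22.23) and 1.625 to 237.6 in PL (median 13.75). For both, NT replicate 6 was the highest and PL replicate 3 the lowest of all libraries, 382.9-fold apart for Igkc and 233.1-fold for Jchain. The PL minus NT differences were -0.53 for Igkc (interval -2.65 to 1.59) and -0.76 for Jchain (interval -2.81 to 1.30). The NT minus NCT difference of Igkc was 0.84 (interval -1.25 to 2.92) and became -0.37 without NT replicate 6.

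The spread of the antibody genes within groups was among the widest in the data. The SD of log2 CPM within groups was 2.19 for Ighm, 2.31 for Igkc and 2.16 for Jchain, which ranked 29, 25 and 31 among 9481 genes with a mean of at least 10 CPM, where the median SD was 0.37. The same libraries led these genes: of the 9 libraries highest in Igkc, 8 were among the 9 highest in Ighm, 8 in Jchain, 8 in Mzb1, and all 9 in Pou2af1. Of those 9, 5 were among the 9 highest in Cd79b, 5 in Ms4a1 and 4 in the summed T and NK level. NT replicate 6, PL replicate 1 and NCT replicate 5 were the 3 highest both in Igkc and in that sum. Mzb1 (a chaperone of antibody folding) reached 22.19 CPM in PL replicate 1 and 18.49 in NT replicate 6, and Pou2af1 (a co-activator of antibody genes) 9.625 and 26.9 CPM. Pan-leukocyte genes were also highest in NT replicate 6 (926.1 CPM summed over 15 genes) and PL replicate 1 (658.2 CPM), against medians of 469.7 in NT and 402.0 in PL. So was Glycam1, an adhesion ligand of lymph node vessels, with 30.21 CPM in NT replicate 6 and 29.89 CPM in PL replicate 1 against group medians of 0.1325 and 0. It was picked from a list of 11 lymphoid stroma genes after the values had been seen. The sum of that list was highest in NCT replicate 3 (179.4 CPM), with 168.0 CPM in NT replicate 6 and 177.0 CPM in PL replicate 1. The recombinase genes Rag1 and Rag2, which developing lymphocytes use, had 1 and 0 counts in all libraries together.

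Derl3, a component of endoplasmic reticulum degradation (chr10:75893413-75895941, plus strand), did not follow the antibody genes. It ranged from 8.902 to 34.7 CPM in NCT (median 16.3), 6.945 to 16.38 in NT (median 11.96) and 5.239 to 30.14 in PL (median 10.28), and 3 of its 9 highest libraries were among the 9 highest in Ighm. Its NT minus NCT difference was -0.61 on the log2 scale (SE 0.22, interval -1.06 to -0.16, edgeR adjusted p = 0.283), and 1 NT library exceeded the NCT median. Between PL and NCT the value was -0.62 (interval -1.25 to 0.00, edgeR adjusted p = 0.214). Without PL replicate 2, in which it was 30.14 CPM and Pth was 27395.6 CPM, the value was -0.92 (edgeR adjusted p = 0.0276).

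As a list, 5 of 9 tested B and plasma genes were lower in PL than in NT, with a median of -0.17 against 0.00 over all genes. Over all 11, without a filter, 7 were lower and the median was -0.52 against -0.01. Between NT and NCT, 5 of 6 were higher in NT with a median of 0.42, which was -0.25 without NT replicate 6. Between PL and NCT, 3 of 6 were higher, with a median of 0.17.

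**Figure D3:**
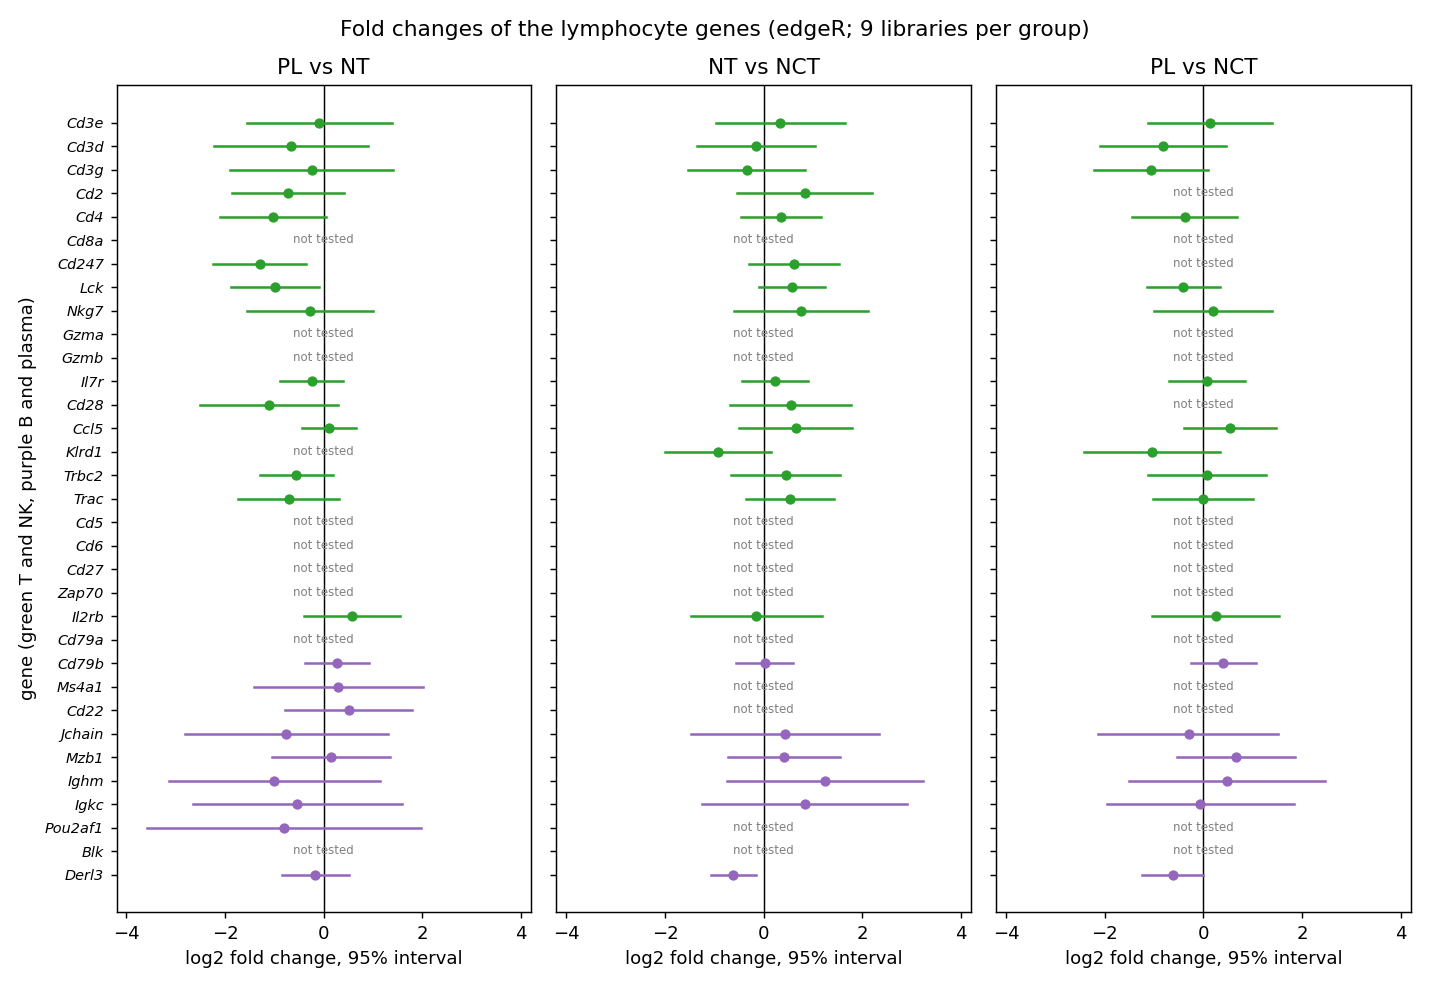
Fitted log2 fold change (points) with its 95% interval (lines) of each gene in PL vs NT, NT vs NCT and PL vs NCT, by edgeR with 9 libraries per group, T and NK genes in green and B and plasma genes in purple. In PL vs NT the widest intervals are those of Pou2af1, Ighm, Igkc and Jchain, and the intervals of Cd247 and Lck in PL vs NT and of Derl3 in NT vs NCT lie on 1 side of 0 before adjustment.

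In males, antibody genes were lower in PL than in NT in every mouse: 3 of 3 for Ighm, Igkc and Jchain. Mice 2 and 9, which are 2 of these 3 males, had Pth at 27395.6 CPM in PL and 25707.5 CPM in NT, and the part of that in their values was not tested. In females the direction was mixed, with Ighm lower in 4 of 6 and Igkc and Jchain lower in 2 of 6. Ighm in the 3 males went from 182.5 to 42.86, from 752.2 to 98.9 and from 1054.5 to 46.57 CPM, while among females it went from 3639.8 to 1118.9 CPM in mouse 6 and from 321.8 to 1877.3 CPM in mouse 1. The male minus female difference of the PL minus NT change was -3.43 for Ighm (SE 1.41, edgeR adjusted p = 1), the 1 gene of 23 tested with an unadjusted p under 0.05. In the interaction test 0% of all genes were called in each comparison, and 401, 412 and 730 genes had an unadjusted p under 0.05 in PL vs NT, NT vs NCT and PL vs NCT. Of the 33 genes, Cd3e (3.75) and Il7r (1.67) had an unadjusted p under 0.05 for NT vs NCT and Cd3e (3.50) for PL vs NCT, with edgeR adjusted p of 1, 1 and 0.902. Limma-voom called none of the 33 in these tests. Fitted on the 6 females of each group alone, the PL minus NT values of Ighm, Igkc, Jchain and Pou2af1 were 0.27, 0.66, 0.42 and 0.86, opposite in sign to those over all 9 mice.

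The make-up of the antibody transcripts also varied by library. Counts of the constant genes were set against each other within a library: the 3′ kit counts transcript ends, so a longer transcript does not give more counts. Ighm took 32.5% of heavy chain constant counts (Ighm, Ighd, Igha and 4 Ighg genes) in NCT replicate 9 (Wilson 95% interval 26.9 to 38.7) and 99% in NT replicate 6 (98.8 to 99.1). The PL sample of mouse 6 stood at 98.8% (98.5 to 99). The median was 72.8% in NCT, 86.8% in NT and 82% in PL, with overlapping ranges. Igha, the heavy chain of mucosal IgA, took up to 47.5% in NCT replicate 9 and 35% in PL replicate 9, and in PL replicate 8 none of 783 heavy chain counts, which allows a share of up to 0.383%. The Ighg genes together took 35.8% in PL replicate 2 and 26.3% in PL replicate 8, 20% in NCT replicate 9, 19.2% in NCT replicate 5 and 15.1% in NT replicate 2, against medians of 2.96% in NCT, 2.84% in NT and 9.8% in PL. The Ighg genes resemble each other closely, as do Iglc1, Iglc2 and Iglc3, so they were summed, and reads that match several copies may have been lost in the authors' counting. Intervals cover counting error only, since the labels name no molecular identifiers. Among the libraries named, NCT replicate 9 had 9791.8 CPM of Lipf and NCT replicate 5 had 4484.7 CPM of Pth. PL replicate 2 had 27395.6 CPM of Pth, and the part of other tissue in these shares was not tested.

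Lambda light chains (Iglc1, Iglc2 and Iglc3 summed) took 0.55% to 63% of light chain counts. NCT replicate 3 had the highest share, 63% (60.8 to 65), against a median of 2.85% in NCT, 7.71% in NT and 8.37% in PL. In mouse 1 the share was 36.3% in NT (34.3 to 38.3) and 29.1% in PL (28.4 to 29.8). Mouse 6 had 1.02% in NT (0.891 to 1.17) and 1.19% in PL (0.926 to 1.54), and mouse 9 had 8.28% in NT and 37.3% in PL. Over the 9 mice the NT and PL lambda shares had a Spearman rho of 0.85 (exact permutation p = 0.00607, adjusted p = 0.0364 over 6 relations) and a Pearson r of 0.59 (exact permutation p = 0.0758, adjusted p = 0.227). Leaving out mice 1 and 4, the farthest from the NT median, r was 0.77, and in the 7 mice with at least 100 light chain counts in both samples r was 0.64 and rho 0.82. The summed Ighg share had r = 0.78 (exact permutation p = 0.0186, adjusted p = 0.112) and rho = 0.77 (exact permutation p = 0.0214, adjusted p = 0.0642). The Ighm share (r = 0.30), the Igha share (r = 0.24), the Ighm level (r = 0.42) and the Trbc2 level (r = 0.45) had exact permutation p of 0.432, 0.516, 0.255 and 0.229. Without the 2 mice farthest from the NT median of each measure, r was 0.85 for the Ighg share, -0.18 for the Ighm share, -0.01 for the Igha share, 0.38 for the Ighm level and 0.19 for the Trbc2 level. These 6 relations were chosen after the values had been seen, and all tests are two-sided.

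**Figure D4:**
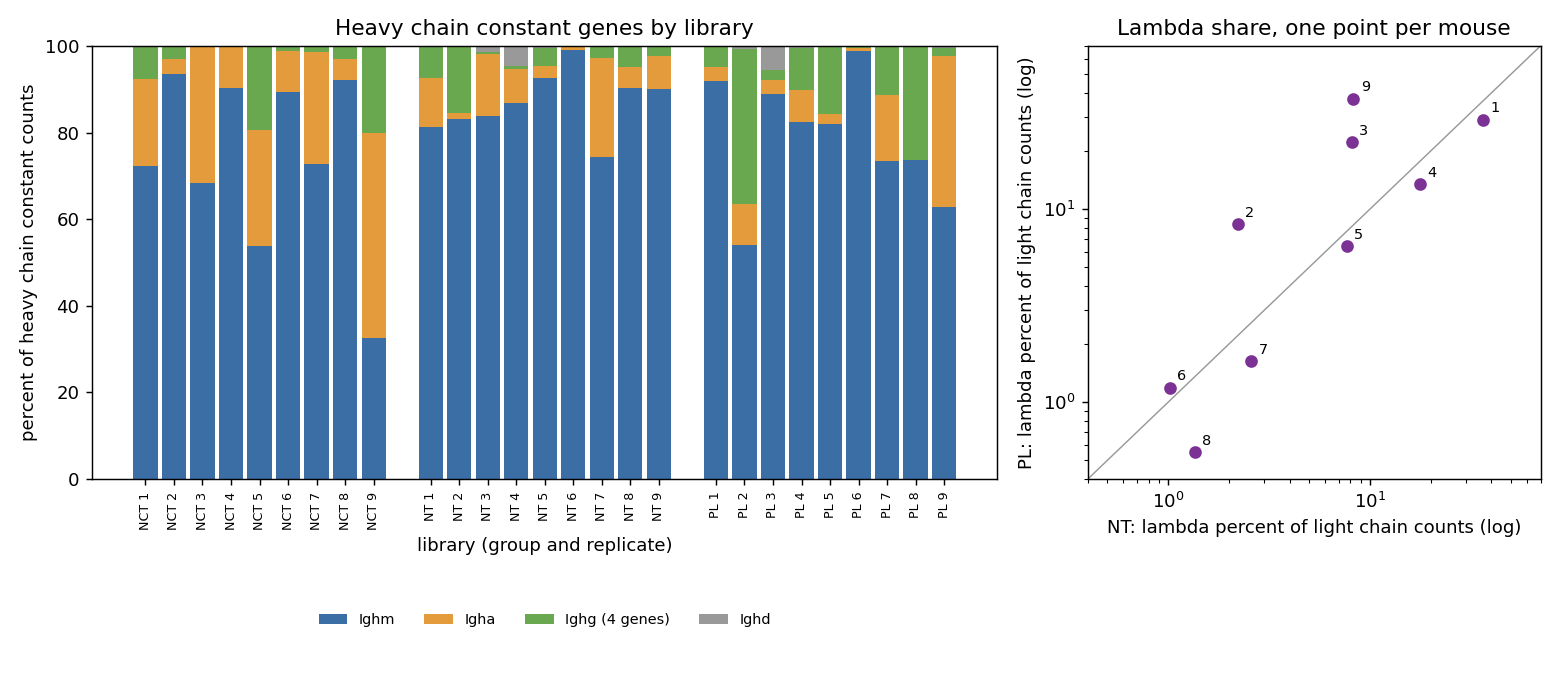
Left, share (percent) of heavy chain constant counts taken by Ighm, Igha, the 4 Ighg genes and Ighd in each of the 27 libraries. Right, lambda share of light chain counts in NT (horizontal, log axis) and PL (vertical, log axis) of each of 9 mice, numbered by replicate, with the line of equality: mice 1 and 6 lie near the line at its opposite ends, and mouse 9 lies far above it.

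Other genes of the same cells were read from lists. Of 37 further T and NK genes, 17 were tested between PL and NT, and 1 passed: Skap1, an adaptor of T cell receptor signalling, rose in PL (1.52, SE 0.24, edgeR adjusted p = 0.00805). Its level was 5.237 to 33.94 CPM in PL (median 13.35) and 2.783 to 8.446 in NT (median 4.53), with overlap, and it did not follow the receptor genes, which had fitted values below 0. The median of the 17 was -0.46, and Thy1 (-0.60) and Bcl11b (-0.98), both T cell genes, had edgeR adjusted p of 0.122 and 0.123. Skap1 was also higher in PL than in NCT (1.41, SE 0.42, edgeR adjusted p = 0.034), the 1 called gene of 15 tested. None of 16 passed between NT and NCT. The shares called over all genes tested were 3.08% between PL and NT and 10.1% between PL and NCT.

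Of 25 further B cell genes, 15 were tested between PL and NT and 1 passed: Cd24a, a surface protein of B cell precursors that many epithelia also make, rose (0.66, SE 0.12, edgeR adjusted p = 0.0117). Its levels were 1763.1 to 4653.2 CPM in PL and 842.9 to 3013.9 in NT. Against NCT, Cd24a (0.83, edgeR adjusted p = 0.00717) and Spib (1.89, edgeR adjusted p = 0.0148), a transcription factor, rose in PL, and Ebf1 (-0.83, edgeR adjusted p = 0.005), a B lineage factor that fat and stromal cells also express, fell. The summed fat markers moved in the same comparison: 8 adipocyte genes had 482.9 to 4848.5 CPM in NCT and 84.31 to 1273.7 in PL, and their part in the Ebf1 value was not tested. Of 18 further plasma cell genes, 13 were tested and 1 passed between PL and NT: Fkbp11, a folding enzyme of secretory cells, rose (0.68, SE 0.17, edgeR adjusted p = 0.0455). Xbp1 and Prdm1, the master regulators of plasma cells, were not called. None of the 13 passed between NT and NCT or between PL and NCT. Over all genes tested, 3.08% were called between PL and NT and 10.1% between PL and NCT.

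Genes that draw or sustain lymphocytes were read from 2 further lists. Cxcl13, the chemokine that draws B cells into follicles, ranged from 19.51 to 93.06 CPM in NCT (median 47.72), 11.83 to 49.13 in NT (median 21.17) and 1.028 to 20.96 in PL (median 7.759). The PL levels lay almost wholly below the NCT levels, and Cxcl13 fell by 2.51 on the log2 scale (-2.51, SE 0.44, edgeR adjusted p = 0.00156). Its PL minus NT value of -1.73 had an edgeR adjusted p of 0.0771. Lta (lymphotoxin α, 1.05, edgeR adjusted p = 0.0107) and Vcam1 (an adhesion molecule, 1.70, edgeR adjusted p = 0.00799) rose in PL against NCT. In total 2 of 5 tested lymphoid stroma genes and 1 of 11 tested attracting and survival factors passed in that comparison, in which 10.1% of all genes passed, and none of either list passed in the other comparisons. Cd1d1, which presents lipids to NKT cells and was listed among thymocyte genes, fell in PL against NCT (-1.45, edgeR adjusted p = 0.0138), the 1 called gene of 7 tested in that list. Its NT minus NCT value was -1.43 (SE 0.31, edgeR adjusted p = 0.0905), and its PL minus NT value was -0.08 (edgeR adjusted p = 0.95).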

How the data were processed

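RNA 3′ ends of 27 laser-microdissected mouse thyroid samples were counted (9 each NCT, NT and PL). The authors deposited raw counts per Ensembl gene, and STAR, featureCounts, DESeq2 and build GRCm38 are named per the submitters' processing notes, without versions. Of 54532 gene rows, 54495 were matched to GENCODE M21 symbols, and the other 37 held 0.00428% of counts. Ccl19 and Ccl21a matched more than 1 row each and were left out of the lists. Totals were 2923851 to 14148601 counts, which limits genes of a few CPM to a handful of counts.

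Counts were tested with edgeR 4.0.16 (quasi-likelihood, TMM, filterByExpr with a minimum count of 10, robust) in R 4.3.3, over all genes with Benjamini-Hochberg adjustment at 0.05, each pair of groups separately. PL vs NT had the mouse as a block, because NT and PL of a pair share a mouse number in the labels. Over all genes, the deviations of such pairs correlated by -0.0162 to 0.212 (mean 0.13), against a mean of -0.016 for unmatched pairs. A sex by group interaction was tested in each comparison. The fits were tested on simulated counts with the same dispersion for every gene and no mouse effect. That does not show how they handle the wide spread of the antibody genes. Alternatives were DESeq2 1.42.0, limma-voom (limma 3.58.1), other normalizations and filters, females only, sex as a covariate, 1 fit of all libraries, no block, and leaving out libraries. Leaving out libraries over 2000 CPM of Pth or Lipf, library totals without TMM, and the alternatives for the sex tests were chosen after seeing the data. The closest replicates of a group differed beyond sampling noise (chi-square per degree of freedom of at least 13.2 in all 108 pairs), and each library counted once.

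The 33 genes and the lists were chosen with earlier results of these data known. Values are given in full for genes past the threshold, for the 3 smallest p of each class in PL vs NT and NT vs NCT, and for Cd3e, Cd4, Cd8a, Nkg7, Cd79a, Ms4a1, Igkc and Jchain. From each other list, counts called and up to 3 genes of smallest p per comparison are given. Other genes named for the library they lead, or for the shape of their values, were picked after these had been seen.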

Additional observations from a re-analysis of the deposited data

Results flagged for a closer look

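In 99 sets of 9 libraries (33 genes in 3 groups), 31 held a library whose gap to the nearest other library passed Dixon's limit for 9 values at the 95% level. For normally distributed values chance gives such a gap in about 1 set in 20. The limit was applied here to untransformed CPM, in which all 31 were the highest value of their set, so that rate need not hold, and genes of one cell type vary together. Of the 31, 9 were NT replicate 6, 8 were NCT replicate 5 and 8 were PL replicate 1. NT replicate 6 stood apart with 10.37 CPM of Gzma, 1.202 CPM of Gzmb, 71.84 CPM of Ccl5, 3.457 CPM of Cd6, 3.908 CPM of Zap70, 18.49 CPM of Mzb1, 3639.8 CPM of Ighm, 3049.1 CPM of Igkc and 26.9 CPM of Pou2af1. NCT replicate 5 stood apart with 8.041 CPM of Cd3e, 4.752 CPM of Cd8a, 13.89 CPM of Lck, 8.651 CPM of Nkg7, 46.54 CPM of Ccl5, 23.51 CPM of Trbc2, 14.5 CPM of Trac and 0.3655 CPM of Cd6. PL replicate 1 stood apart with 7.193 CPM of Cd3e, 11.95 CPM of Lck, 26.34 CPM of Trbc2, 13.07 CPM of Trac, 3.546 CPM of Cd5, 3.85 CPM of Cd27, 9.827 CPM of Ms4a1 and 22.19 CPM of Mzb1. NT replicate 3 stood apart with 8.4 CPM of Cd3g and 6.586 CPM of Blk. NCT replicate 2 stood apart with 2.911 CPM of Gzma and 34.7 CPM of Derl3. PL replicate 5 stood apart with 3.165 CPM of Blk. PL replicate 2 stood apart with 30.14 CPM of Derl3. NCT replicate 5, NT replicate 6 and PL replicate 1 also had the highest pan-leukocyte sums of their groups (549.4, 926.1 and 658.2 CPM), and NCT replicate 5 had 4484.7 CPM of Pth. The part of other tissue in these values was not tested.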

How the results depend on the processing

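No T, NK, B or plasma gene of the 33 was called in the 3 comparisons, and that count was 0 under every alternative but 2. DESeq2's Wald test gave 1 T or NK gene in PL vs NT (Cd247, -1.31, adjusted p = 0.0311). Leaving out each library in turn gave 0 to 1 B or plasma genes in PL vs NCT, the 1 being Derl3 without PL replicate 2 (-0.92, edgeR adjusted p = 0.0276). It gave 0 in the other comparisons and for T and NK genes. Over all alternatives the smallest adjusted p of the 33 genes was 0.0311 in PL vs NT, 0.149 in NT vs NCT and 0.0276 in PL vs NCT. Without the replicate block for the mouse, PL vs NT again gave 0 of the 33 genes, so the pairing changed no call among them. Over all genes, 402 were called without the block against 445 with the block. The sign of the fitted value was the same under all alternatives for 12 of 23 genes in PL vs NT, 13 of 21 in NT vs NCT and 8 of 18 in PL vs NCT. The median of tested T and NK genes stayed between -0.73 and -0.33 in PL vs NT and between 0.19 and 0.9 in NT vs NCT, and lay between -0.41 and 0.37 in PL vs NCT. That of B and plasma genes crossed 0 in all 3 comparisons (-0.52 to 0.55, -0.37 to 0.78 and -0.49 to 0.61), with the -0.37 from limma-voom. Counts over all genes depended more on the setting. In PL vs NT they were 1285 by DESeq2, 832 without a filter, 6 in females, 95 without the libraries high in Pth or Lipf and 137 to 529 with a mouse left out. In NT vs NCT they were 134 by DESeq2, 0 by limma-voom, 15 without a filter, 7 by library totals, 1 in females, 1 without the libraries high in Pth or Lipf and 0 to 12 with a library left out. In PL vs NCT they were 450 in females, 797 without the libraries high in Pth or Lipf, and otherwise 1126 to 1867. Library totals without TMM moved the median of all genes in NT vs NCT to 0.12 from 0.01, and the PL vs NCT calls to 892 higher and 472 lower from 776 and 657. The cause of these shifts was not tested. Genes under a few CPM, such as Cd8a, Gzma, Gzmb, Cd5, Cd6, Cd27, Zap70, Cd79a and Blk, were too low to be tested in any comparison at this depth.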
